A study of Drosophila melanogaster with 25 samples.

Results

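The genes described here encode the proteins of the cytosolic ribosome of Drosophila melanogaster. They were taken by name, as every row of the UMI count table whose symbol starts with RpL (large subunit) or RpS (small subunit), and 92 of 17087 gene rows met that rule, 54 of the large and 38 of the small subunit. The genes of the mitochondrial ribosome carry other symbols and were not members, and neither were sta and Rack1, which encode proteins of the small subunit under names of their own. No expression value entered the choice. Of the 92 genes, 23 lie on chromosome 3R, 21 on 2R, 19 on 2L, 14 on 3L, 14 on X and 1 on chromosome 4.

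The study profiled dopaminergic neurons (DANs) and circadian clock neurons of adult fly brains around the day, in light-dark cycles. Times are zeitgeber times (ZT), in hours after lights on. For 10X Genomics 3′ sequencing, cells were sorted from a stable line that carries TH-GAL4 and Clk856-GAL4 together with EGFP, with 1 library at ZT14 and 1 at ZT02. For CEL-seq2, a plate method that primes from the poly(A) tail, EGFP-positive cells of flies with TH-GAL4 alone were sorted, with 4 libraries each at ZT02, ZT06, ZT14, ZT18 and ZT22 and 3 at ZT10. All groups came from equal numbers of males and females, and no group of flies carried a mutation or was given a treatment. Brains were dissected in a saline that held inhibitors of neuronal activity, and were then digested with papain. Both drivers limit what was sampled: TH-GAL4 marks a part of the DANs, the combined line does not say which driver marked a cell, and no driver for glia was used. Libraries of 1 time point may come from 1 plate of cells, so p-values over them measure the spread between libraries, which may be technical.

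A ribosome reads mRNA on its small (40S) subunit and joins amino acids on its large (60S) subunit, and each subunit holds 1 copy of most of its proteins, so cells make the many proteins in step. In animals their mRNAs are among the most abundant, and the mRNAs of most start with a short run of pyrimidines through which the TOR kinase controls their translation. Cells that make much protein, such as growing and secreting cells, hold many ribosomes. Several fly genes have near copies that are used mainly in the germ line, as RpS5b and RpS19b are. Because a 3′ UMI tags 1 end of 1 transcript, levels are given as UMIs of a gene per 10000 UMIs of the cells summed (TP10K), which are not scaled by transcript length.

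Cell classes were read from marker UMIs that are no members. Clock cells had 3 or more UMIs of tim, vri, Clk and cry together and at most 1 of Vmat, and DANs had 5 or more UMIs of Vmat and 1 or more of DAT. Glia-like cells had 5 or more TP10K of Gs2, the glial glutamine synthetase, and at most 1 UMI of nSyb, which neurons use in neurotransmitter release. Of 5184 cells in the 10X libraries (2296 at ZT14 and 2888 at ZT02), 232 were glia-like (114 and 118), 948 were clock cells (456 and 492) and 2192 were DANs (891 and 1301), after 78 glia-like cells were left out of the clock cells and 4 out of the DANs. No cell barcode was shared by the 10X libraries. The median cell had 6212.5 UMIs at ZT14 and 2626.5 at ZT02 in glia-like cells, 10909.5 and 8323.5 in clock cells, and 8465 and 6501 in DANs, so ZT14 cells were deeper in each class. The 23 CEL-seq2 libraries held 52 to 79 cells and 548486 to 1197517 UMIs each, 1516 cells in all, of which 76.2% met the DAN rule.

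Marker sums describe these classes and do not test them, since the DAN, clock, glial and neuronal sets include genes of the rules. The 4 DAN markers summed to 383.7 TP10K at ZT14 and 385.5 at ZT02 in DANs, against at most 11.0 in the other classes, and the 6 clock markers to 212.2 and 60.9 in clock cells. Clock markers were not confined to clock cells. In the tests given below, 4 of the 6 were called higher in glia-like cells than in DANs (25.6% of all genes). Against clock cells, 4 of the 6 were called lower in glia-like cells (24.4% of all genes). In glia-like cells the 5 glial markers summed to 28.3 and 21.95 TP10K, against 0.26 to 0.52 in neurons, and the 4 neuronal markers to 1.27 and 1.35. However, repo and alrm, which define most glia and astrocytes, were at 0 there, so these cells are called glia-like by rule only. Markers of hemocytes (3 genes) summed to 1.06 TP10K at ZT14 and 1.61 at ZT02 in clock cells and to at most 0.125 in the other classes, and those of fat body (3 genes) to at most 1.85 and of photoreceptors (4 genes) to at most 3.68 in any class.

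In 10X neurons (clock cells and DANs together) most members were expressed at like levels: 81 of 92 had 1 TP10K or more, and 62 lay between 10 and 25. The median member stood at 12.4 TP10K in 10X neurons and at 1.98 in CEL-seq2, with rows as deposited. The 5 highest were RpL36 (21.4 TP10K; X:628338-629483 in dm6), RpL37a (21.05), RpS15 (20.8), RpL14 (20.4) and RpS26 (20.2), which belong to both subunits. RpL34a was the lowest of the 81, at 2.41 TP10K (3R:26058420-26059267), so the 81 spanned 8.87-fold. RpS15Ab (0.366) and RpLP0-like (0.249) came between these and 9 genes under 0.05 TP10K.

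**Figure D1:**
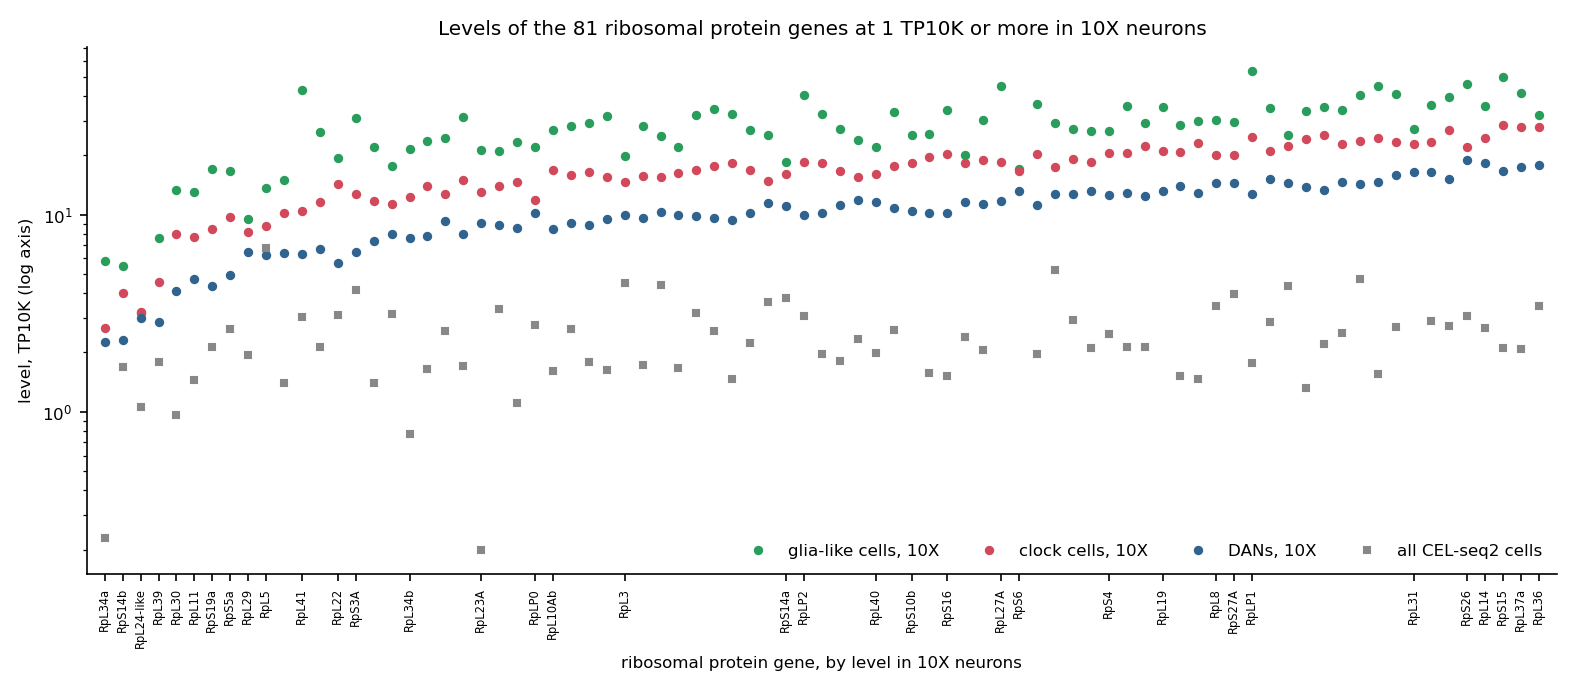
Level of each of the 81 members with 1 TP10K or more in 10X neurons, in TP10K on a log axis (vertical), with members ordered along the horizontal axis by their level in 10X neurons, names given for some of those described in the text, and points coloured by glia-like cells, clock cells, DANs and CEL-seq2. Glia-like points lie above clock and DAN points for nearly every member, CEL-seq2 points lie below, and RpS6, RpL19, RpL27A, RpL31 and RpS10b have no CEL-seq2 point under their symbols.

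The 9 genes at or near 0 in 10X were near copies or relatives of an expressed member. Among them, RpL7-like had 7 to 53 UMIs in each CEL-seq2 library. In all 10X cells RpS10a had 23 UMIs, RpL37b 10, RpS5b 8, RpS28-like 3 and RpS19b 3, and RpL22-like, RpL10Aa, RpL7-like and RpS28a had none. Their partners were among the expressed members: RpS5a had 9.03 TP10K at ZT14 and 10.3 at ZT02 in clock cells, and RpS19a had 8.84 and 8.08. For RpL10Aa, for example, 0 of 7871 UMIs of the pair in ZT14 clock cells allows a share of up to 0.0381%. These shares, like all intervals given here, cover counting error only.

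Other copies were used beside their partners. RpS14b made up 22.7% of the RpS14a and RpS14b UMIs at ZT14 and 23.1% at ZT02 in glia-like cells, 19.5% and 20.5% in clock cells, and 16.3% and 17.96% in DANs. RpL34a made up 19.5% and 16.5% of the RpL34 pair in clock cells, and 23.4% and 22.6% in DANs. RpS15Ab gave only 2.23% and 1.83% of its pair in clock cells and 4.40% and 4.36% in DANs. Copies with near-identical sequence, of which RpS14a and RpS14b are the clearest case, are uncertain, since the counting could split their reads. RpL24-like and RpLP0-like, relatives of the yeast assembly factors Rlp24 and Mrt4 that leave the 60S subunit as it matures, gave 13.6% and 2.68% of the UMIs of their pairs in ZT14 clock cells, 12.95% and 2.72% in ZT02 clock cells, and 16.7% and 2.17% in ZT14 DANs.

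The summed level of all 92 members differed between classes more than between times. It was 2128 TP10K at ZT14 and 2345 at ZT02 in glia-like cells, 1331 and 1420 in clock cells, and 797.8 and 925.6 in DANs, so that members took 21.3% and 23.5% of all UMIs of glia-like cells. Over single cells the 10th to the 90th percentile ran from 1505 to 3068 TP10K in ZT14 glia-like cells, from 735 to 1961 in ZT14 clock cells and from 506 to 1074 in ZT14 DANs, so single cells of the classes overlapped. The order glia-like, clock, DAN held at both times. A share of UMIs cannot tell more of these mRNAs from less of all other mRNAs in a cell.

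**Figure D2:**
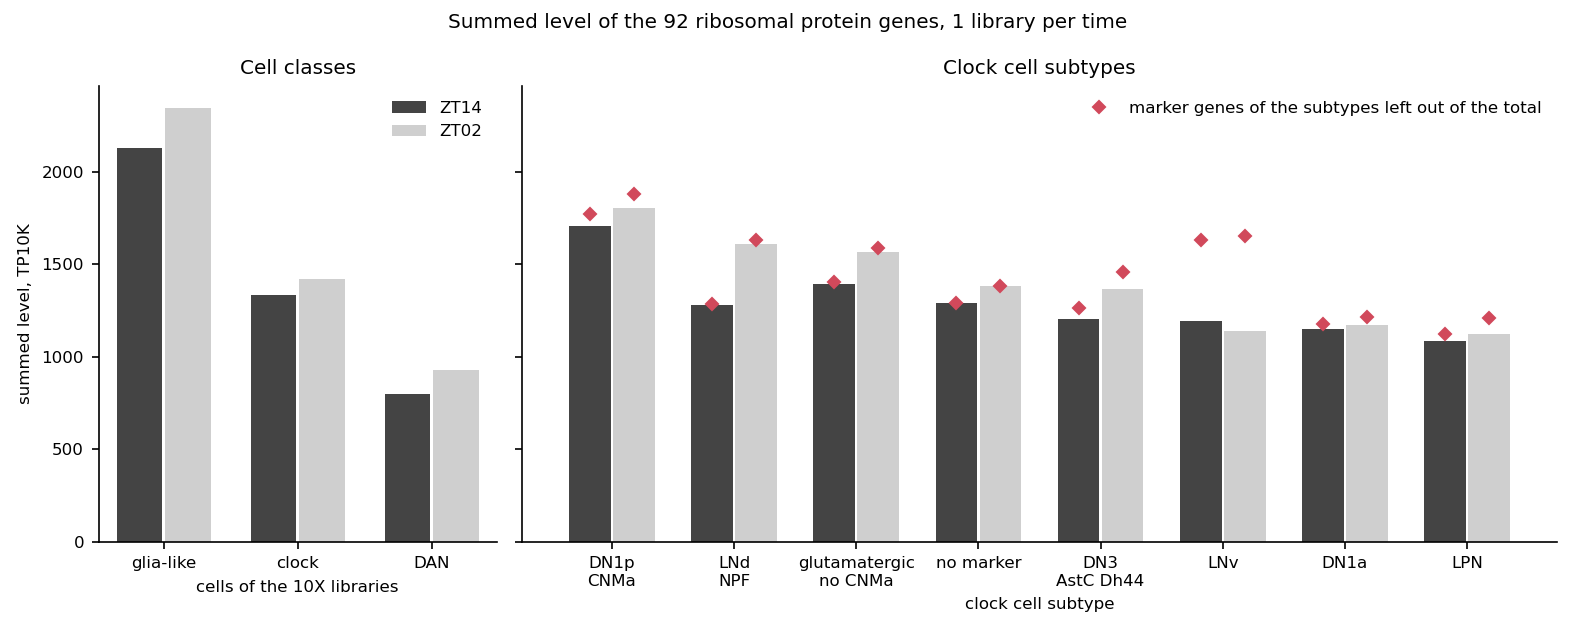
Summed level of the 92 members in TP10K (bars from 0) at ZT14 and ZT02 in glia-like cells, clock cells, DANs and 8 clock subtypes, 1 library per bar. Diamonds give the level with the subtype markers left out of the total. Glia-like cells stand highest, DN1p CNMa cells highest among subtypes, and LNv cells are the subtype that the diamond moves most.

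The ratio of 60S to 40S mRNAs was higher in glia-like cells than in clock cells and DANs, a difference that was not tested. The 60S members summed to 1277 TP10K at ZT14 and 1400 at ZT02 in glia-like cells, and the 40S members to 851 and 945, a ratio of 1.501 and 1.481. The ratio was 1.384 and 1.389 in clock cells and 1.374 and 1.386 in DANs. The 73 genes of the mitochondrial ribosome went the other way between classes, with 24.1 and 19.6 TP10K in glia-like cells, 32.9 and 32.9 in clock cells and 35.7 and 41.4 in DANs. The transcripts of the mitochondrial genome, in contrast, summed to 426 and 184 TP10K in glia-like cells, 122 and 49.7 in clock cells, and 114 and 54.2 in DANs.

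The first comparison asked how clock cells differ from DANs of the same libraries. Most ribosomal protein mRNAs of both subunits were higher in clock cells, with a median difference of 1.69-fold over the members tested, and none was called lower. The largest differences were in RpL22 (X:762560-765130), which binds RNA at the surface of the 60S subunit, RpL10Ab, the protein of the L1 stalk past which spent tRNA leaves, and the 40S proteins RpS16, RpS3A and RpS5a. RpL22 had 12.4 TP10K at ZT14 and 16.02 at ZT02 in clock cells, against 5.37 and 5.98 in DANs. RpL10Ab had 15.9 and 17.8 in clock cells, against 7.69 and 9.23 in DANs. RpS16 had 18.3 and 22.2 in clock cells, against 9.06 and 11.3 in DANs. For all 3 genes both clock sums exceeded both DAN sums.

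Counts were tested with edgeR's quasi-likelihood test on sums per class and library, with Benjamini-Hochberg adjustment over 8032 genes, and a gene was called at an adjusted p below 0.05 and a difference of 25% or more. Of 83 members tested (9 had too few UMIs), 63 were called higher in clock cells and 0 lower, where 9.06% of all genes tested were called higher and 5.64% lower. A total of 78 members had an unadjusted p below 0.05, and DESeq2 called 76 higher. At unadjusted p, here and below, members alone were counted, with no share of all genes to set beside them. The same holds for counts by DESeq2 and under other alternatives, unless a share is given, so a larger count there has no baseline. The log2 fold changes, with their SE, were 1.40 ± 0.16 for RpL22 (adjusted p = 0.0104), 1.08 ± 0.14 for RpL10Ab, 1.07 ± 0.13 for RpS16, 1.06 ± 0.14 for RpS3A and 1.05 ± 0.15 for RpS5a (n = 2 libraries). The 2 libraries differ in time, so SE and p-values for classes and subtypes reflect how differences varied between them, not a spread between replicates. The median over members was 0.755, beside -0.005 over all genes. With 1 library per time, the class ratio can also be read within each: 82 of 83 members were above 1 in both, with a median of 1.68 at ZT14 and 1.54 at ZT02. Over all genes with such a ratio, 42.85% were above 1 at ZT14 (median 0.950, n = 4329) and 37.29% at ZT02 (median 0.917, n = 4079).

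The 3 stalk proteins sit on the 60S subunit and recruit the elongation factors, with RpLP0 as the base and RpLP1 and RpLP2 on top. RpLP1 had 23.2 TP10K at ZT14 and 26.5 at ZT02 in clock cells, against 11.2 and 14.3 in DANs, and RpLP2 17.9 and 19.3, against 9.19 and 10.7. Both were called. RpLP0 had 10.9 and 12.8 TP10K in clock cells, against 8.77 and 11.5 in DANs, and was not called (log2 fold change 0.31).

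Neither of the ubiquitin fusions, RpS27A and RpL40, which are made joined to ubiquitin and then cut from it, was called. RpS27A had 19.1 and 21.0 TP10K in clock cells, against 13.3 and 15.6 in DANs. In all, 20 members were not called, among them RpL14 (log2 fold change 0.50), RpS6 (0.42), RpS26 (0.30), RpL34a (0.32), RpL24-like (0.19) and RpS15Ab (-0.42), the 1 member with a value below 0. Of the 27 near-copy genes 18 were tested and 13 called higher. RpS6, the protein of the 40S subunit that S6 kinase phosphorylates, had 15.4 and 17.8 TP10K in clock cells, against 11.7 and 14.6 in DANs.

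The call count was lowest, 14, with the 78 glia-like cells kept among clock cells, and 50 with UMI totals in place of TMM scaling. The 3 hemocyte markers were also called higher in clock cells, where 4 of 456 cells at ZT14 and 8 of 492 at ZT02 had a UMI of one, and without such cells 60 members were called. Of 3 glial markers tested, 1 was called higher as well, with all 5 summing to 0.39 to 0.52 TP10K in clock cells and 0.26 to 0.36 in DANs.

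Other genes of the translation machinery were compared by list. Elongation factors, which bring tRNA to the ribosome and move it along, were called higher in 4 of 7 cases, none lower, with eEF1alpha1 (log2 fold change 1.71), eEF1gamma (1.29) and eEF1beta (1.02) the largest. Initiation factors were called higher in 5 of 27, among them pAbp, which binds poly(A) tails (0.93), and eIF3e (0.79). Of 5 other ribosome-bound proteins 3 were higher, namely Tctp (1.04), Rack1 (0.76) and sta (0.70), which is a 40S protein in all but symbol. Of 29 ribosome assembly factors 3 were higher (hoip 1.75, Non1 0.80, Nph 0.78), and of 16 genes of TOR and growth signalling also 3 (Thor, which blocks eIF4E, 5.04; foxo 2.94; Myc 1.04). None of 72 mitochondrial ribosomal protein genes and none of 12 stress genes was called in either direction.

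Glia-like cells had the highest levels of nearly every member. The largest difference from DANs was in RpL41 (2R:24903416-24903935), the smallest ribosomal protein, followed by RpS3A on chromosome 4 (65225 to 67207), the stalk proteins RpLP1 and RpLP2, and RpS19a. RpL41 had 56.1 TP10K at ZT14 and 30.1 at ZT02 in glia-like cells, against 8.06 and 4.53 in DANs. RpS3A had 28.8 and 32.8 in glia-like cells, against 5.91 and 7.09 in DANs. RpLP1 had 49.6 and 57.5 in glia-like cells, against 11.2 and 14.3 in DANs. Each glia-like sum of these genes was above each DAN sum by more than 3-fold.

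Of 83 members tested, 82 were called higher in glia-like cells than in DANs and 0 lower, where 25.6% of all genes were called higher and 26.8% lower. The log2 fold changes were 3.21 ± 0.16 for RpL41 (edgeR adjusted p = 0.000103), 2.69 ± 0.15 for RpS3A, 2.52 ± 0.13 for RpLP1, 2.47 ± 0.14 for RpLP2 and 2.41 ± 0.16 for RpS19a (SE, n = 2 libraries). The median was 1.775 (3.42-fold) with TMM scaling, beside -0.196 over all genes. At the low end stood RpL24-like (0.54), RpS6 (0.82) and RpLP0-like (0.96), all called, and RpS15Ab (0.77), which was not (adjusted p = 0.0513). Without TMM scaling, the median ratio of TP10K within each library was smaller, 2.56 at ZT14 and 2.53 at ZT02. All 81 members with such a ratio were above 1 in both libraries. Over all genes with such a ratio the median was 1.247 at ZT14 (n = 776) and 1.737 at ZT02 (n = 422), with 59.92% and 64.45% above 1. Glia-like cells were the shallowest class and the highest in mitochondrial transcripts, and the part of either in these differences was not tested. Between 79 and 83 members were called under every alternative run, cells of 3000 to 15000 UMIs included.

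Against clock cells, 80 of 83 members were called higher in glia-like cells and 0 lower (24.1% of all genes higher, 24.4% lower), with a median log2 fold change of 1.058 (2.08-fold), beside -0.188 over all genes. RpL41 again led (2.46 ± 0.16), before RpL27A (1.65 ± 0.13), RpS3A (1.64 ± 0.14), RpL35 (1.54 ± 0.14) and RpL34a (1.49 ± 0.19). RpL27A had 44.0 TP10K at ZT14 and 46.0 at ZT02 in glia-like cells, against 18.6 and 18.4 in clock cells. The 3 members that were not called were RpS6 (0.40), RpL24-like (0.35) and RpLP0-like (0.21). In TP10K, which is without TMM scaling, RpS6 was close in both classes, at 15.6 and 18.4 in glia-like cells, against 15.4 and 17.8 in clock cells. With TMM scaling it was 1.32-fold higher in glia-like cells, though not called. Without TMM scaling, the median ratio of TP10K to clock cells was again smaller, 1.57 at ZT14 and 1.66 at ZT02. Of 81 members with such a ratio, 80 were above 1 at ZT14 and 81 at ZT02. Over all genes with such a ratio the median was 1.246 at ZT14 (n = 788) and 1.377 at ZT02 (n = 411), with 61.8% and 67.15% above 1.

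The rest of the translation machinery was also mostly higher in glia-like cells. Against DANs, 6 of 7 elongation factors were higher and 1 lower. The exception was one of 2 genes for the factor that carries tRNA: eEF1alpha1 had 41.5 TP10K at ZT14 and 46.9 at ZT02 in glia-like cells, against 3.39 and 3.76 in DANs (log2 fold change 4.07), whereas eEF1alpha2 had 0.066 and 0.574, against 11.4 and 12.7 (-5.06). Of 27 initiation factors 20 were higher and 2 lower, led by eIF3k (1.94) and eIF3e (1.81), and all 5 other ribosome-bound proteins were higher, led by Tctp (2.81) and sta (1.71). Assembly factors divided (5 higher and 4 lower of 29), as did TOR and growth signalling (5 and 4 of 16), stress genes (4 and 4 of 12) and mitochondrial ribosomal proteins (5 and 11 of 72).

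Clock neurons are a mixed class, so members were next compared between 8 subtypes set by neuropeptide and transmitter markers with 10 or more cells in each library: LNv (Pdf), DN1a (CCHa1), LPN (AstA and AstC), DN1p CNMa, LNd NPF, DN3 (AstC and Dh44), glutamatergic cells without CNMa, and cells with no marker. DN1p CNMa cells, dorsal neurons that make the peptide CNMamide, had the highest summed level, 1704 TP10K at ZT14 and 1805 at ZT02. LNd NPF cells had 1280 and 1607 TP10K, glutamatergic cells without CNMa 1395 and 1563, cells with no marker 1290 and 1379 (1229 and 1224 without cells that had a hemocyte UMI), and DN3 cells 1203 and 1365. LNv cells had 1194 and 1136, DN1a cells 1150 and 1173, and LPN cells 1084 and 1121. At each time, both DN1p CNMa values were thus above those of every other subtype, and LPN was lowest.

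In LNv cells, the ventral pacemakers, Pdf alone took 26.5% of UMIs at ZT14 and 31.2% at ZT02, which lowers every other gene per 10000 UMIs. With the markers left out of the total, LNv cells had 1631 and 1651 TP10K of members, next to DN1p CNMa cells with 1768 and 1880.

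An F test over the subtypes called 65 of 83 members, where 27.4% of 5462 genes were called (75 members at an unadjusted p below 0.05). Among the members called, those with the largest spread between subtypes were RpL22, RpL30, RpS5a, RpL11, which binds 5S rRNA together with RpL5, and RpL26. RpLP0-like (2.95-fold) and RpS15Ab (2.64-fold), both low in UMIs, had larger spreads and were not called. RpL22 spanned 2.49-fold (edgeR adjusted p = 0.000583) and was highest in LNd NPF cells, with 21.5 TP10K at ZT14 and 30.8 at ZT02. In DN1p CNMa cells it had 15.1 and 16.7, in cells with no marker 12.8 and 15.01, in glutamatergic cells 10.8 and 12.7, and in DN1a cells 10.7 and 17.2. The lowest values were in LPN cells (9.47 and 11.2), DN3 cells (9.45 and 12.1) and LNv cells (9.05 and 10.3), so that the LNd NPF cells did not overlap with any other subtype.

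**Figure D3:**
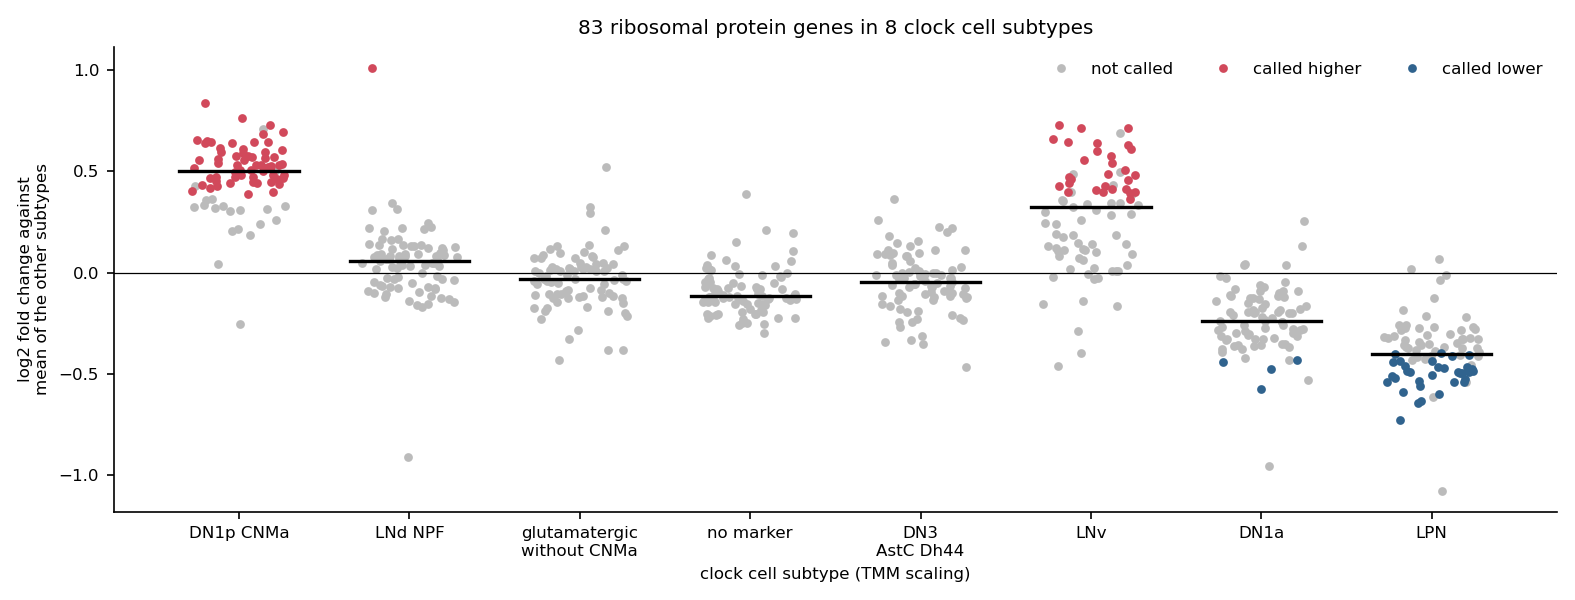
Log2 fold change of each of 83 members (points) in each of 8 clock subtypes against the mean of the other 7, with the median as a black line. The median is 0.50 in DN1p CNMa cells, 0.33 in LNv cells and -0.40 in LPN cells.

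Single subtypes were set against the mean of the other 7, with p-values adjusted over all genes and subtypes. In DN1p CNMa cells 63 members were called higher and 0 lower (6.35% of all genes higher, 2.86% lower), with a median of 0.50 (1.42-fold). RpL11 led, at 0.84 ± 0.14, with 11.3 TP10K at ZT14 and 12.5 at ZT02, against 5.497 to 9.02 in the other subtypes. The next among those called were RpL4 (0.77), RpS5a (0.73), RpL30 (0.70) and RpL27A (0.69), and alternatives called 44 to 67. In LNd NPF cells, the 1 member called was RpL22 (1.01 ± 0.11, adjusted p = 0.000106), where 4.25% of all genes were called higher and 1.81% lower.

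In LPN cells 33 members were called lower and 0 higher (2.56% of all genes lower, 3.48% higher), with a median of -0.40. RpL30 (-0.73), RpL24-like (-0.64), RpL26 (-0.63), RpS13 (-0.60) and RpS5a (-0.59) had the largest differences among those called. This count ranged from 10 to 44 over the alternatives: it was 10 with no filter on low counts, 12 with UMI totals or with cells of 3000 to 15000 UMIs, 20 without cells that had a hemocyte UMI and 21 with subtype markers left out of the total. DN1a cells had 4 members lower and 0 higher (2.18% and 4.6% of all genes), among them RpL35 (-0.57), RpL34b (-0.48) and RpS29 (-0.43), and 0 to 17 over the alternatives.

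The LNv call depended on how totals were set. With TMM scaling 29 members were called higher and 0 lower (8.29% and 5.09% of all genes), with a median of 0.33, and RpL38 (0.73), RpS21 (0.71), RpL30 (0.71), RpS19a (0.66) and RpLP2 (0.64) led among those called. With UMI totals, which include Pdf, 0 were higher and 18 lower, with a median of -0.163. With totals that leave out the subtype markers, 24 were higher and 2 lower, and 10 were higher with no filter and 14 among cells of 3000 to 15000 UMIs. Hemocyte markers were seen almost only among cells with no marker (4.65 TP10K at ZT14 and 11.2 at ZT02, and at most 0.065 in any other subtype). In those cells 0 members were called (8.5% of all genes higher, 0.549% lower), as in DN3 cells (3.64% and 1.26%) and in glutamatergic cells without CNMa (3.24% and 0.751%), all by edgeR. At an unadjusted p below 0.05, 0 members were higher and 3 lower in cells with no marker, 2 and 7 in DN3 cells, and 2 and 5 in glutamatergic cells without CNMa.

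Next, ZT14 was set against ZT02 within each class of the 10X libraries. With 1 library per time there is no replicate and no test, and the intervals below cover counting error only. Summed levels were slightly lower at ZT14: the ratio was 0.907 in glia-like cells (95% interval 0.900 to 0.915), 0.937 in clock cells (0.934 to 0.941) and 0.862 in DANs (0.859 to 0.865). Single members, however, split by size. The shortest mRNAs were higher at ZT14 in all 3 classes and the longer ones lower.

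RpL41 had 14.5 TP10K at ZT14 and 6.44 at ZT02 in clock cells, and its ratio was 1.87 in glia-like cells, 2.25 in clock cells and 1.78 in DANs. RpL39, another very small 60S protein, had 6.14 and 2.97 TP10K in clock cells, with ratios of 1.83, 2.07 and 1.76. RpL29 had 10.2 and 6.05, with ratios of 1.51, 1.69 and 1.54. These 3 genes have the shortest transcripts of the measured members, 320, 288 and 329 bases, where the median member has 707.5 bases. RpS21 (1.30, 1.45 and 1.27), RpS27 (1.20, 1.41 and 1.33) and RpL38 (1.33, 1.34 and 1.24) were also above 1 in each class.

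At the other end, RpS4 (3L:13041756-13044234), with 1075 bases, had 16.7 TP10K at ZT14 and 24.3 at ZT02 in clock cells and ratios of 0.725 in glia-like cells, 0.689 in clock cells and 0.669 in DANs. RpL8 had 17.2 and 22.7 TP10K in clock cells, with ratios of 0.755, 0.756 and 0.702. RpL19 had 0.741, 0.778 and 0.727. RpLP0 had the lowest ratio in glia-like cells, 0.7003, and RpL15 and RpS2 had 0.714 in DANs.

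**Figure D4:**
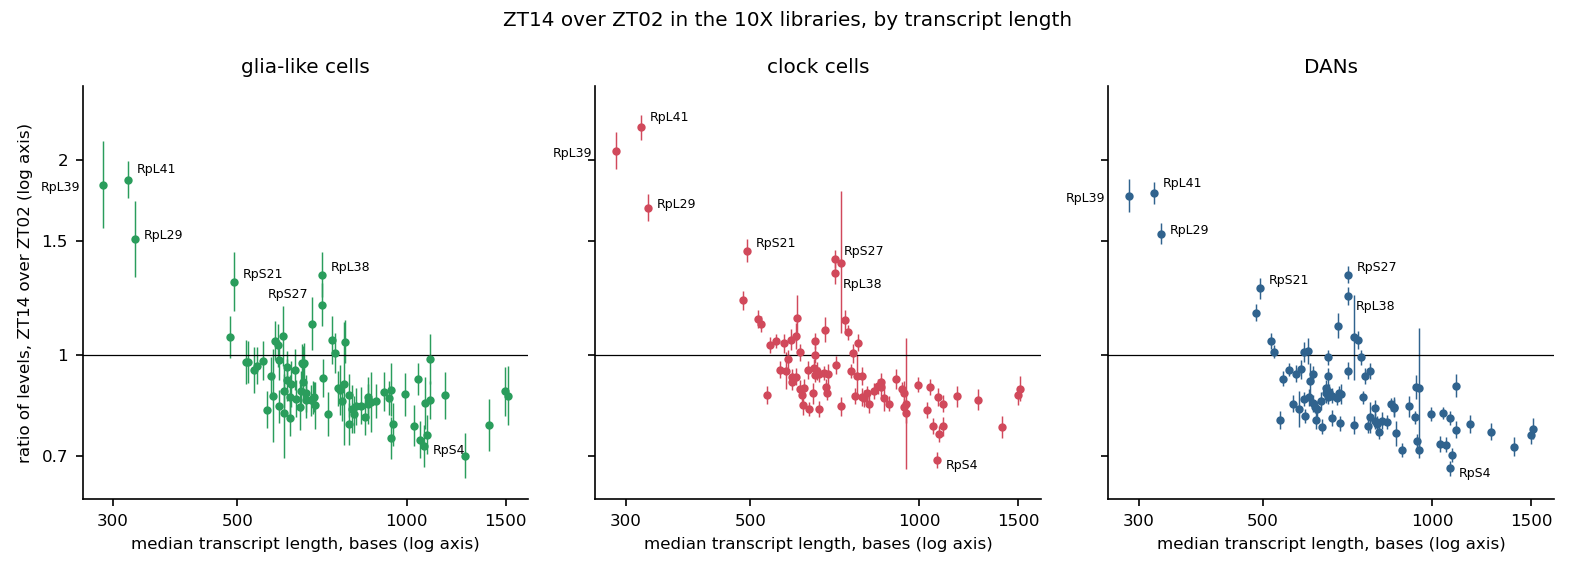
Ratio of TP10K at ZT14 to ZT02 (vertical) against transcript length in bases (horizontal) for the members in glia-like cells, clock cells and DANs, 1 library per time, with 95% counting intervals. RpL41, RpL39 and RpL29, under 400 bases, lie at 1.51 to 2.25, and most members over 800 bases lie below 1.

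Over members, 7 were higher by 25% or more at ZT14 and 5 lower by the same fold in clock cells (of 83; 17.9% and 13.5% of all genes), 5 and 25 in DANs (of 83; 11.6% and 16.7%), and 5 and 10 in glia-like cells (of 81; 21% and 23.9%). These shares lay below those of all genes except for the members lower in DANs. The median ratio was 0.873 in glia-like cells, 0.910 in clock cells and 0.843 in DANs, beside 0.964, 1.007 and 0.969 over all genes. Of 81 members with a ratio in all classes, 11 were above 1 in each and 57 below 1 in each. Since all classes come from the same pair of libraries, they are not separate observations of time.

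The rank correlation of the ratio with transcript length over members, given as a description, was -0.546 in glia-like cells (n = 81), -0.663 in clock cells (n = 83) and -0.642 in DANs (n = 83). Other short genes had the same sign: under 1000 bases it was -0.276 (n = 138), -0.392 (n = 600) and -0.384 (n = 744). Members under 400 bases had a median ratio of 2.07 in clock cells and 1.76 in DANs, and other genes of that length 1.95 (n = 12) and 1.65 (n = 19). Over other genes of all lengths the sign was the opposite, with 0.180 in glia-like cells (n = 471), 0.215 in clock cells (n = 3981) and 0.497 in DANs (n = 5230). The relation was not seen in CEL-seq2, where the rank correlation over members for ZT14 against ZT02 was -0.079. Depth per cell also differed between these libraries, as given above, and its part was not tested.

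RpL41 by subtype gives the same picture, with 10.0 to 20.1 TP10K at ZT14 and 4.14 to 8.51 at ZT02 over the 8 subtypes, with no overlap. RpS15Ab, low in every class, had a ratio of 1.39 in clock cells (interval 1.08 to 1.79).

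The CEL-seq2 libraries give time of day with replicates. The summed level of the members as deposited averaged 205.3 ± 6.46 TP10K at ZT02, 153.9 ± 14.8 at ZT06, 154.4 ± 15.3 at ZT10, 224.0 ± 7.65 at ZT14, 213.9 ± 41.6 at ZT18 and 155.4 ± 6.16 at ZT22 (SD, n = 4 libraries, 3 at ZT10). It was thus higher at ZT02, ZT14 and ZT18 than at ZT06, ZT10 and ZT22, except in 1 ZT18 library with 154.0 TP10K. A code in the library names pairs the times: ZT14 with ZT02, ZT22 with ZT06, and ZT18 with ZT10. The libraries of ZT14 and ZT02 had 3.9% to 5.7% of their UMIs in spike-in RNA and all others at most 0.026%. Time and code thus cannot be told apart across codes, which holds for the order of the sums above. Pairs of times were tested only within a code, while the cosine below spans all codes.

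**Figure D5:**
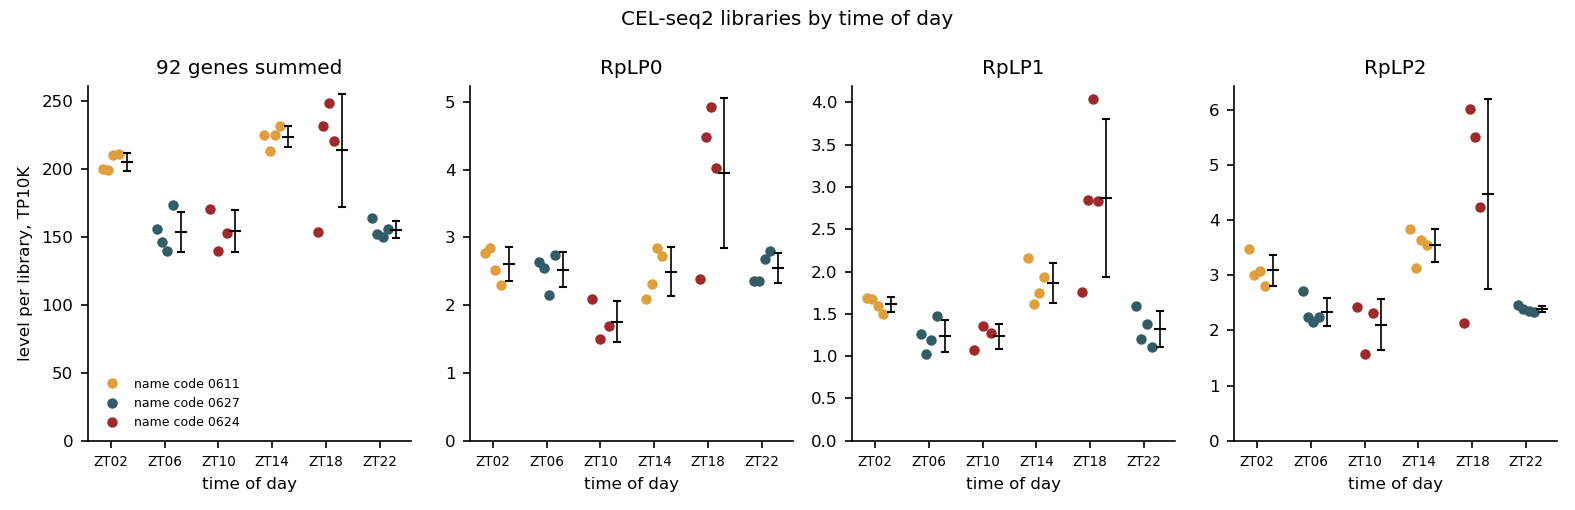
Level in TP10K of all members together, RpLP0, RpLP1 and RpLP2 in each CEL-seq2 library (points) from ZT02 to ZT22, with the mean and SD of each time, coloured by the code in the library names. RpLP0, RpLP1 and RpLP2 are high in 3 of the 4 ZT18 libraries, while ZT18 library 13 lies near the ZT10 libraries.

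At ZT18 the 3 stalk mRNAs were higher than at ZT10. RpLP0 had 2.39, 4.48, 4.92 and 4.03 TP10K in ZT18 libraries 13 to 16, against 2.09, 1.501 and 1.69 in ZT10 libraries 17 to 19. RpLP1 (2L:419952-420864) had 1.75, 2.85, 4.04 and 2.83 at ZT18, against 1.07, 1.36 and 1.27 at ZT10. RpLP2 had 2.14, 6.02, 5.51 and 4.25 at ZT18, against 2.43, 1.57 and 2.31 at ZT10. RpLP0 and RpLP1 did not overlap between the times, and RpLP2 overlapped through ZT18 library 13, the lowest ZT18 library for all 3 genes.

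RpL3, which builds the catalytic core of the 60S subunit, had 4.28, 6.96, 8.42 and 6.79 TP10K at ZT18, against 2.84, 2.97 and 3.83 at ZT10. RpL34a had 0.229, 0.412, 0.318 and 0.309 TP10K at ZT18, against 0.194, 0.132 and 0.090 at ZT10, on only 24 to 39 and 10 to 13 UMIs per library. Neither overlapped. The ratio of 60S to 40S sums was 1.467, 1.657, 1.581 and 1.519 at ZT18 and 1.372, 1.377 and 1.395 at ZT10, again without overlap.

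Of 79 members tested, 30 were called higher at ZT18 and 0 lower, where 5.17% of 6039 genes were called higher and 4.02% lower. A total of 48 members had an unadjusted p below 0.05, and the median log2 fold change was 0.419 (1.34-fold), beside 0.041 over all genes. The log2 fold changes were 1.18 ± 0.35 for RpL34a (edgeR adjusted p = 0.0375), 1.16 ± 0.20 for RpLP1 (0.000828), 1.13 ± 0.18 for RpLP0 (0.000363), 1.05 ± 0.22 for RpLP2 (0.00351) and 0.99 ± 0.18 for RpL3 (0.00108). Both ubiquitin fusions were called as well, RpL40 at 0.73 and RpS27A at 0.65. In library values, 16 members were higher without overlap and 2 lower, where 7.87% and 7.67% of all genes were.

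The count rested on few libraries. It was 14 without ZT10 library 18, 19 without ZT10 library 19, 19 without ZT18 library 14, 18 without ZT18 library 15 and 17 with no filter on low counts. Without ZT18 library 13 it was 42. Other cells differed between these libraries too: the 5 glial markers summed to 0.376 to 2.87 TP10K at ZT18 and 0.433 to 1.94 at ZT10, the 4 DAN markers to 85.1 to 135 at ZT18 and 108 to 153 at ZT10, and the hemocyte markers to as much as 1.98 in 1 ZT10 library and at most 0.042 in the others. Their part in the result was not tested. With only cells that met the DAN rule, 25 members were called.

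Of the other lists, initiation factors were called higher in 5 and lower in 3 of 23 at ZT18, with eIF3g1 (1.35) and eIF3f1 (1.21) the largest and eIF3c (-1.04) lower. sta was higher (0.94), as 1 of 5 ribosome-bound proteins. None of 7 elongation factors, 19 assembly factors or 14 genes of TOR and growth signalling was called, and 1 of 69 mitochondrial ribosomal proteins was.

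Between ZT14 and ZT02, 0 of 79 members were called in CEL-seq2, where 0% of all genes were called higher and 0.0166% lower by edgeR. DESeq2 also called 0, and 2 members, RpS19a (log2 fold change 0.30) and RpS12 (0.31), had an unadjusted p below 0.05. The summed level was 213.7 to 232.2 TP10K at ZT14 and 199.3 to 211.3 at ZT02, so the libraries did not overlap, and 11 members were higher without overlap and 0 lower (2.77% and 1.44% of all genes). This direction was opposite to that of the 10X DANs, with 797.8 TP10K at ZT14 and 925.6 at ZT02. Over CEL-seq2 cells that met the DAN rule the sums overlapped, with 204.9 to 234.9 at ZT14 and 195.7 to 215.9 at ZT02. Between ZT22 and ZT06, 0 members were called by edgeR or DESeq2 (0.182% of all genes higher, 0.0166% lower). At an unadjusted p below 0.05 there were 3 members, RpL34b and RpS9 among them, all with lower values at ZT22, and 0 members were higher and 1 lower without overlap (2.98% and 2.27%).

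A cosine of 24 h over all 23 libraries, and so across the codes in library names, called 1 member, RpLP1. Its peak-to-trough ratio was 1.92, with a peak at ZT17.8 (edgeR adjusted p = 0.0435), where 1.84% of all genes were called. A total of 19 members had an unadjusted p below 0.05, a level at which no share of all genes was counted. The call was lost with only cells that met the DAN rule (adjusted p = 0.115) and with the code in library names as a block (0.225).

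Finally, DANs measured by 10X were set against DANs measured by CEL-seq2 at ZT14 and ZT02. The methods were applied to different fly lines, so method and line cannot be told apart. With rows as deposited, members took a far larger share of the 10X UMIs, with 797.8 TP10K at ZT14 and 925.6 at ZT02 in 10X DANs, against 204.9 to 234.9 and 195.7 to 215.9 in CEL-seq2 DANs. The totals differ in make-up: rRNA rows took 6.80% of CEL-seq2 UMIs and 0% of 10X UMIs, and mitochondrial genome rows 12.67% and 0.948%. Over genes with UMIs in both methods, the sums were 802.4 and 931.2 TP10K in 10X DANs, against 258.4 to 302.6 and 245.9 to 272.6 in CEL-seq2 DANs. Of 84 members tested, 74 were called higher in 10X and 4 lower (26.2% and 26.5% of all genes), with a median log2 fold change of 1.65 (3.14-fold), beside -0.015 over all genes.

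Row names bear on this comparison, since the table merges 2 annotations: 23.4% of CEL-seq2 UMIs fell in rows with none in 10X, and 743 genes had a row under another name in each method. RpL19, RpL27A, RpL31 and RpS10b had no CEL-seq2 UMI under their symbols but 3.32, 2.10, 3.75 and 1.99 TP10K under their gene IDs. With rows of 1 gene joined, 74 of 84 members were again called higher and 4 lower (21.6% and 21.7% of all genes), and with genes that had UMIs in both methods 73 of 81 and 3 (21.2% and 18.4%).

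RpS6 was not among the joined rows. It had 11.7 TP10K at ZT14 and 14.6 at ZT02 in 10X DANs and 0 UMIs in all 23 CEL-seq2 libraries. As its mRNA is needed by every cell, it is given here only as listed at 0 in CEL-seq2, with no fold. CR33222, a noncoding RNA gene, and a small nucleolar RNA gene together share 16.9% of the exon bases of RpS6. CR33222 had 0 UMIs in 10X and 5.03 TP10K in CEL-seq2. RpL23A, chosen after its values were seen, had 7.95 to 10.1 TP10K in 10X DANs and 0.12 to 0.48 in CEL-seq2 DANs (4.99 ± 0.26 on the log2 scale). Uhg7 and a small nucleolar RNA gene together share 31.9% of the exon bases of RpL23A. Uhg7 had 0 UMIs in 10X and 2.63 TP10K in CEL-seq2. How reads in such shared bases were counted in each method was not tested.

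Among members without such a partner, RpL34b (2.75 ± 0.15), RpL34a (2.63 ± 0.29) and RpLP1 (2.55) were higher in 10X. RpLP1 had 11.2 and 14.3 TP10K in 10X DANs, against 1.46 to 1.93 in CEL-seq2 DANs. Lower in 10X were RpS15Ab (-1.69 ± 0.23), RpL5 (-0.73 ± 0.22), RpS14b (-0.49 ± 0.15) and RpL7-like, which had 0 UMIs in 10X, 0.0960 to 0.465 TP10K in CEL-seq2 DANs and 98.8% of its exon bases in common with CG34164. RpS15Ab had 0.418 and 0.392 TP10K in 10X DANs, against 0.733 to 1.24 in CEL-seq2 DANs, and RpL5 5.41 and 7.02, against 5.30 to 10.2. With UMI totals in place of TMM, RpL5 (-0.31) and RpS14b (-0.08) were no longer called.

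In 10X DANs the share of a copy in its pair lay below the range of the CEL-seq2 libraries for some pairs and within it for RpL34a. RpS15Ab gave 4.40% and 4.36% of its pair in 10X DANs and 19.7% in all CEL-seq2 cells (12.6% to 27.5% over libraries), RpL24-like 16.7% and 16.5% against 27.2% (20.3% to 37.3%), and RpS14b 16.3% and 17.96% against 31.0% (21.6% to 38.4%). RpL34a gave 23.4% and 22.6% against 23.1%, within the range over libraries (10.9% to 36.6%). Across the 81 expressed members the rank correlation of levels was 0.914 between clock cells and DANs, 0.663 between glia-like cells and DANs and 0.167 between 10X neurons and CEL-seq2 with rows as deposited, where RpS6 and the 4 members under gene IDs stand at 0. With those 4 rows joined and RpS6 left out it was 0.290 (n = 80). These are given as a description across genes, which are not independent replicates.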

How the data were processed

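The authors counted unique molecular identifiers (UMIs) on exons of dm6 with zUMIs (CEL-seq2) and Cell Ranger 6.0.2 (10X), after bcl2fastq 2.20, removed cells by genes, UMIs and entropy and doublets by Scrublet (10X), and deposited raw counts per gene and cell in 1 table of 9025 cells. Of these columns 2325 belong to no sample used here. The 91 spike-in rows were left out of totals. Cells with marker UMIs were summed per library, and sums were tested with edgeR 4.0.16 (quasi-likelihood, TMM, filterByExpr, Benjamini-Hochberg adjustment over all genes) in R 4.3.3, with library as a block between classes and time of day as a covariate between methods; DESeq2 1.42.0 was the alternative. A call needed an adjusted p below 0.05 and 1.25-fold, or 1.5-fold from peak to trough. The tests were checked on simulated data. All 92 members were found in the annotation BDGP6.54, which gave positions and transcript lengths.

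The members, gene lists and tests were chosen with earlier results of these data known. The text names the 5 highest and 5 lowest members, near copies, stalk, ubiquitin fusions, RpS6, the 5 called members with the largest change each way per comparison (without a test, the 5 largest ratios of members with 100 or more UMIs), and up to 4 genes of a list. Rows of 1 gene under 2 names, subtype markers in totals and cells with hemocyte UMIs were examined after the values were seen. Library numbers are shared between times, but deviations of same-numbered libraries did not correlate (r from -0.0976 to 0.0273 over 8 pairs), so the numbers did not pair libraries. Some members are not reported by name here.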

Additional observations from a re-analysis of the deposited data

Results flagged for a closer look

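In ZT02 library 2 of CEL-seq2, the ratio of 60S to 40S sums was 1.31, apart from 1.365 to 1.376 in the other 3 ZT02 libraries. In ZT06 library 2 it was 1.432, against 1.49 to 1.497 in the other 3. RpL34a, a copy of RpL34b, had 0.3529 TP10K in ZT02 library 2 and 0.163 to 0.182 in the other 3. These 3 values stood apart by Dixon's test among 40 sets of libraries looked at, of which chance flags about 1 in 20.

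The summed level of members in LNv cells had a ratio of 1.051 at ZT14 to ZT02, while the other 7 clock subtypes had 0.796 to 0.981. The difference was not tested, and the LNv ratio was 0.988 with subtype markers left out of the total. Cells with no marker had a ratio of 1.004 without the cells that had a hemocyte UMI, so LNv cells were then not alone above 1.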

How the results depend on the processing

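The comparisons of glia-like cells with DANs and clock cells and of 10X with CEL-seq2 kept their counts of calls within 1.5 times under every alternative run. Between clock cells and DANs, 14 members were called with glia-like cells kept among clock cells. Between ZT18 and ZT10, 17 were called with no filter, and 14 to 42 over fits without 1 library; leaving out a library gave 0 to 0 for ZT14 against ZT02 and for ZT22 against ZT06, and 75 to 79 for the methods, beside 78 with all libraries, where a lone 10X library is assumed to vary like the CEL-seq2 libraries. The cosine called 0 members with the DAN rule, 0 with the name code as a block, 3 with DESeq2 and 0 to 1 without 1 library. With the library number as a replicate block it called 0, though these numbers do not pair libraries; no pair of times that was compared shares numbers. The LNv median was -0.163 with UMI totals, opposite in sign to that with TMM. The summed ZT14 to ZT02 ratio was 0.957 over cell medians, 0.9457 with the stricter class rule and 0.9276 with totals without members in clock cells, 0.87, 0.8748 and 0.8499 in DANs, and 0.8823 with totals without members in glia-like cells. Results on named members cover only called members with the largest change in each comparison, so they were picked for large effects. The spread over subtypes and the peak-to-trough ratio cannot change sign, so those results could not reverse. Members of single subtypes were not included, and many fits without 1 library left out a library of neither time compared. Within these limits, of 482 alternative values for 35 results, 459 kept direction and side of the threshold, 23 lost their call and 0 reversed. The cause was not tested. Classes had 1 library per time, so a fit without a library had no residual degrees of freedom. Rare copies, with few UMIs, are limited by depth.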
